A study of Mus musculus with 9 samples.

Results

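Genes for amino acid transporters of the plasma membrane were followed in 4T1-TGL cells and in lines of them knocked out for the long noncoding RNA Malat1. They were chosen by symbol alone, as Slc1a, Slc3a, Slc6a, Slc7a, Slc36a, Slc38a or Slc43a followed only by digits. No measured value entered that rule, but earlier results of these data were known when the set was chosen. Of the 19072 gene identifiers in the tables, 51 met this rule. Of these, 29 passed the filter on low counts and were tested. Slc6a4, Slc6a2 and Slc1a2 passed only through the group where they were high, and Slc1a7 and Slc38a4 would not have passed without their highest group. Over the 9 libraries, 23 of the genes averaged at least 1 CPM (counts scaled by library size). The libraries fall into 3 groups of 3, namely KO2 and KO1, each a Malat1 knockout line, and Ctrl, the same cells with wild-type Malat1. All 3 groups were 4T1-TGL, a mouse breast cancer cell line of BALB/c origin, grown in DMEM/F12. Each knockout genotype rests on 1 line, and what was done to derive the lines is not given in the sources used here. The labels do not say that libraries of a group came from separate cultures, so the p-values given rest only on how far such libraries spread, and that spread may be technical.

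Cells take up and exchange amino acids through carriers that differ in substrate and in driving force. The Slc7 light chains are antiporters that reach the surface as partners of a Slc3 heavy chain: Slc7a5 with Slc3a2 exchanges large neutral amino acids, and Slc7a11 with Slc3a2 is the cystine/glutamate antiporter that supplies cysteine for glutathione. Slc1a5 and the Slc38 carriers use sodium to bring in glutamine, alanine and serine, the Slc6 family carries taurine, creatine, glycine and monoamines, and Slc36a1 and Slc38a9 are also known at the lysosome, where amino acids act on mTORC1. When amino acids run short, the factor ATF4 is known to induce several of these carriers together with enzymes such as asparagine synthetase.

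The promoter of Slc7a11 is shown because Slc7a11 is a defining gene of the set and was 1 of the carriers whose level varied together between libraries. The 250 bases before the start of an annotated transcript, which lies inside the full extent of the gene, from RefSeq on GRCm38.p6 (chr3:50443614-50443863, minus strand, chromosome 3), read as follows, with matches to the amino acid response element core TGATGNAA in capitals.
Slc7a11: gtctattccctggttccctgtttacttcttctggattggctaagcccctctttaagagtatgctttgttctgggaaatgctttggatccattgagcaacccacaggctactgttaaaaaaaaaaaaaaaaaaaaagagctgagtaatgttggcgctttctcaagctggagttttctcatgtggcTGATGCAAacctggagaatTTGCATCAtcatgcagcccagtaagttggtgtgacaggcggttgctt
A match on the strand shown began at -66 from the start, and a match on the opposite strand, read here as its reverse complement, began at -47. These letters, searched on both strands, occurred in 1134 of 32851 windows of the same length (3.45%). The 36 transporter genes with a window had 56 windows, of which 3 held a match, in Slc7a11 and Slc7a7. The antioxidant response element core TGACNNNGC occurred in 10.2% of all windows and in 6 of the 56. These 6 belonged to 5 genes, namely Slc38a2, Slc6a13, Slc6a9, Slc7a1 and Slc7a6. A match is a description of the letters and not a site shown to be used.

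The libraries held 30655924 to 35406395 expected counts each, and 13682 genes were tested. Malat1 itself stood at 16.5, 22.2 and 13.4 FPKM (fragments scaled by transcript length and library size) in the KO2 libraries, at 0.58, 0.54 and 0.39 in KO1 and at 74.1, 58.1 and 69.5 in Ctrl, so that KO2 kept more of the transcript than KO1. Of the 4 epithelial markers, Krt8 and Krt18 made up nearly all of the summed level, while Epcam reached at most 0.32 FPKM and Cdh1 at most 0.08 FPKM in any library. That sum was 1341 to 1447 FPKM in KO2, 799.4 to 938.8 in KO1 and 456.2 to 471.9 in Ctrl. The 4 fibroblast markers summed to 20.33 to 21.02 FPKM in KO2, 41.97 to 45.25 in KO1 and 50.92 to 52.64 in Ctrl, mostly from Pdgfra, with Thy1 at 0. Leukocyte markers stayed at or below 0.83 FPKM, endothelial markers at or below 0.66 and neuronal markers at or below 0.01, with Rbfox3 and Snap25 at 0. The keratin and Pdgfra levels moved with the groups, and their part in the differences below was not tested. In bulk RNA, fewer cells of a kind and less RNA per cell cannot be told apart.

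The cells expressed a broad set of neutral amino acid carriers and few of the neuronal and renal ones. In each group, Slc38a2, Slc3a2 and Slc7a5 had the highest FPKM, in that order, and together they made up 48.3% to 54.8% of the summed FPKM of all 51 genes in a library. Slc38a2, a sodium-coupled carrier of small neutral amino acids (gene 67760, chromosome 15, 96687392 to 96699728, GRCm38), stood at 116, 109.8 and 117 FPKM in KO2, at 137, 133 and 132 in KO1 and at 126, 114 and 125 in Ctrl. Its KO1 libraries all lay above the others, by less than the test could call (log2 fold change 0.11 ± 0.06 in KO1 against Ctrl, SE; edgeR adjusted p = 0.211). A further 9 genes averaged at least 10 FPKM: Slc1a5, Slc38a10, Slc38a1, Slc6a6, Slc6a9, Slc7a1, Slc1a4, Slc7a11 and Slc6a8. Between 10 and 1 FPKM came Slc7a6, Slc43a2, Slc38a7, Slc36a1, Slc38a6, Slc7a7, Slc38a9 and Slc36a4. Of the genes that were listed at all, 26 stayed under 0.5 FPKM in every library. The order of the groups' means was not the same for the middle genes, since Slc6a6 ranked 4 in KO2, 9 in KO1 and 10 in Ctrl, and Slc36a1 ranked 13 in KO2 and 16 in KO1 and Ctrl. Neighbours in that order, such as Slc1a4 (22.3 ± 4.05 FPKM) and Slc7a11 (22.2 ± 5.39 FPKM) in Ctrl (SD, n = 3), often did not differ beyond their spread.

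**Figure D1:**
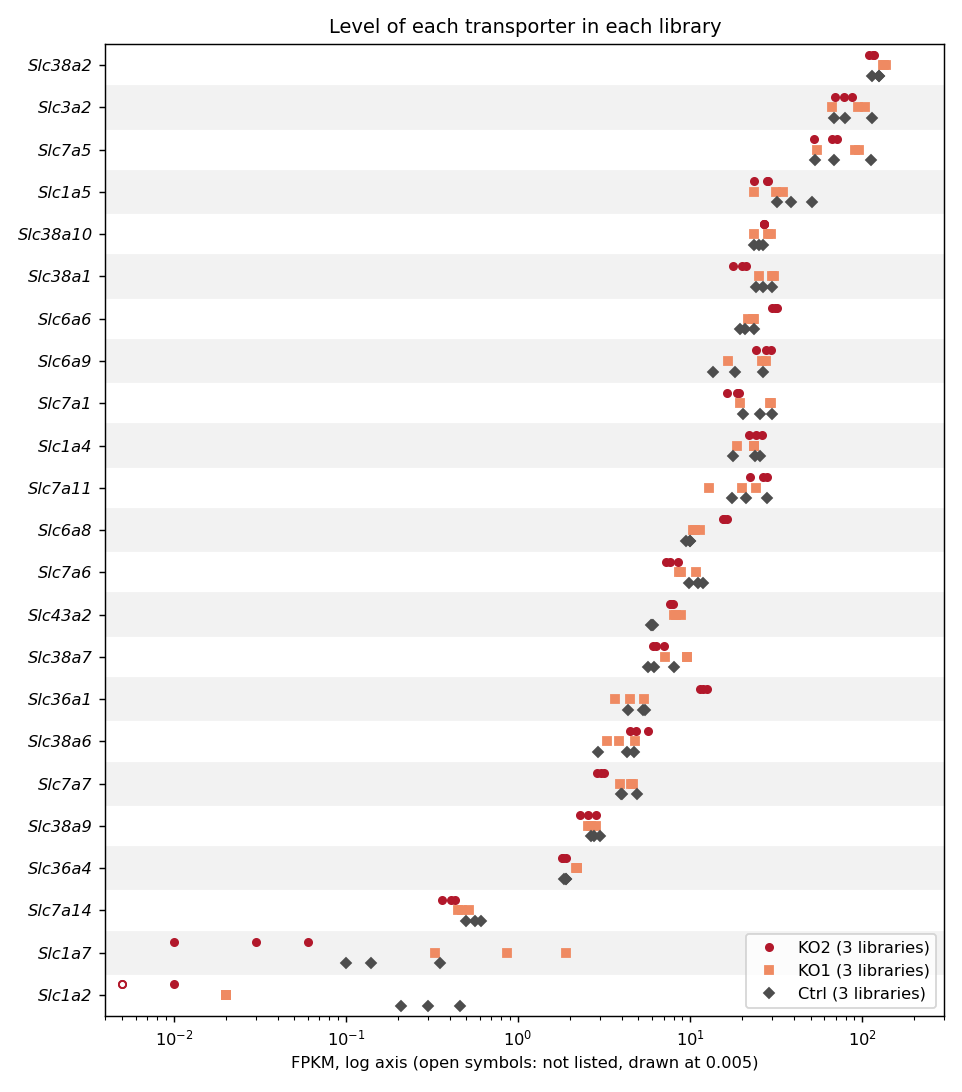
FPKM of the 23 transporter genes with a mean of at least 1 CPM (log axis), with 1 point per library, KO2 above KO1 above Ctrl within each row. Slc38a2, Slc3a2 and Slc7a5 lie highest, the KO2 points of Slc36a1, Slc6a6 and Slc6a8 lie to the right of the others, and those of Slc1a2 and Slc1a7 to the left.

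The comparisons asked which carriers differed between the knockout lines and the control, and, since both lines were set against the same Ctrl libraries, KO2 was also tested directly against KO1. In KO2 against Ctrl, 5 of the 29 tested transporters rose and 10 fell, and 54.1% of all tested genes were called (24.6% higher and 29.5% lower), against 51.7% of the transporters. In KO2 against KO1, 4 rose and 8 fell (41.4%), and 55.0% of all genes were called (25.5% higher and 29.5% lower). In KO1 against Ctrl, 4 rose and 2 fell (20.7%), and 30.5% of all genes were called (15.6% higher and 14.9% lower). Of these calls, Slc1a7, Slc6a4, Slc6a2 and Slc1a2 would not have passed the filter without their highest group. A difference between groups was part of their being tested. The KO2 counts include such genes too: Slc1a2, Slc6a4 and Slc38a4 against Ctrl, and Slc1a2, Slc1a7, Slc6a4 and Slc6a2 against KO1. The share called among transporters was thus close to or under that of all genes in each comparison. The median log2 fold change of the transporters was -0.08 in KO2 against Ctrl, -0.13 in KO2 against KO1 and 0.02 in KO1 against Ctrl, with medians over all tested genes of -0.03, -0.02 and -0.00 in the same order of comparisons. With the genes left at 3 counts or fewer set at their bound, the first 2 medians were -0.08 and -0.13. The number that fell in KO2 against Ctrl was 5 without KO2 replicate 1, 6 without KO2 replicate 3 and 6 without Ctrl replicate 3. Among the 23 genes with at least 1 CPM, 4 rose and 6 fell in KO2 against Ctrl, 3 rose and 4 fell in KO2 against KO1, and 2 rose and 1 fell in KO1 against Ctrl.

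**Figure D2:**
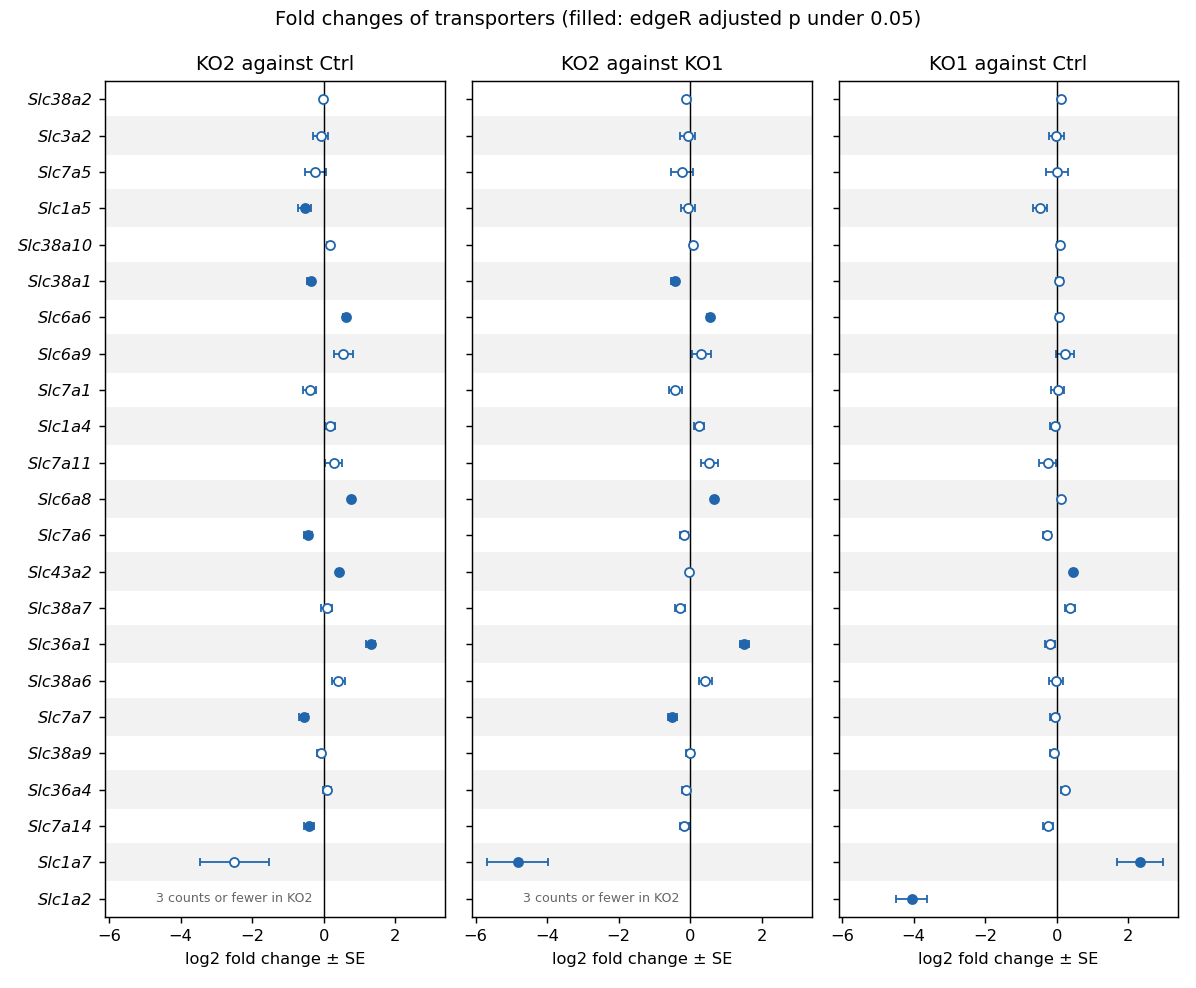
Log2 fold change with its SE from edgeR for the 23 transporter genes with a mean of at least 1 CPM, in KO2 against Ctrl, KO2 against KO1 and KO1 against Ctrl. Filled points passed an adjusted p of 0.05, and no fold is drawn for Slc1a2 where KO2 had 3 counts or fewer. Slc36a1 at 1.32 and 1.51 is the largest rise drawn in the KO2 panels.

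Among the heterodimeric exchangers, the abundant subunits did not pass the test in any comparison, and the less abundant light chains Slc7a6 and Slc7a7 fell in KO2. Slc3a2, the heavy chain that carries the light chains to the surface (gene 17254, chromosome 19, 8706882 to 8723369), stood at 87.3, 69.1 and 77.8 FPKM in KO2, at 103, 66.7 and 94.4 in KO1 and at 68.6, 113.6 and 79.6 in Ctrl. Slc7a5, its partner for large neutral amino acids (gene 20539, chromosome 8, 121881146 to 121907686), stood at 71.2, 52.0 and 66.3 FPKM in KO2, at 95.6, 54.5 and 91.1 in KO1 and at 52.9, 112 and 68.8 in Ctrl. Slc7a11, the cystine/glutamate light chain (gene 26570, chromosome 3, 50364936 to 50499087), stood at 28.1, 22.2 and 26.4 FPKM in KO2, at 24.0, 12.9 and 20.1 in KO1 and at 17.5, 28.1 and 21.0 in Ctrl. For all 3 genes the groups overlapped, with replicate 2 the lowest library of KO2 and of KO1 and the highest of Ctrl.

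The log2 fold change of Slc7a5 was -0.23 ± 0.30 in KO2 against Ctrl (SE; edgeR adjusted p = 0.557) and 0.01 ± 0.30 in KO1 against Ctrl (SE; edgeR adjusted p = 0.983). That of Slc3a2 was -0.08 ± 0.21 in KO2 and -0.02 ± 0.21 in KO1 (SE; edgeR adjusted p = 0.756 and 0.958). Slc7a11 had 0.28 ± 0.23 in KO2 against Ctrl (SE; edgeR adjusted p = 0.341), -0.26 ± 0.23 in KO1 against Ctrl (SE; edgeR adjusted p = 0.450) and 0.54 ± 0.23 in KO2 against KO1 (SE; edgeR adjusted p = 0.0815). These SEs leave room for differences in either direction for Slc7a5 and Slc3a2. The higher Slc7a11 level in KO2 than in KO1 passed with DESeq2 (adjusted p = 0.0161), with limma-voom (adjusted p = 0.0465) and without KO1 replicate 1 (edgeR adjusted p = 0.0388). Taken within each library, the ratio of Slc7a11 to Slc3a2 FPKM was 0.321, 0.321 and 0.339 in KO2, 0.232, 0.194 and 0.213 in KO1 and 0.255, 0.247 and 0.264 in Ctrl. The 3 groups did not overlap in that ratio, which was chosen after the values were seen and was not tested. It does not show which of the genes differed between groups.

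Slc7a7 (gene 20540, chromosome 14, 54369442 to 54420068), a light chain that exchanges cationic for neutral amino acids, stood at 3.16, 3.02 and 2.89 FPKM in KO2, at 4.51, 3.92 and 4.66 in KO1 and at 3.97, 4.88 and 4.01 in Ctrl. Every KO2 library lay below every KO1 and Ctrl library. It fell in KO2 against Ctrl (log2 fold change -0.55 ± 0.13, SE; edgeR adjusted p = 0.00357) and in KO2 against KO1 (-0.50 ± 0.13, SE; edgeR adjusted p = 0.00636). Its value in KO1 against Ctrl was -0.05 ± 0.12 (SE; edgeR adjusted p = 0.786). The neighbouring gene Oxa1l, which overlaps Slc7a7, had a log2 fold change of -0.00 in KO2 against Ctrl (edgeR adjusted p = 0.989). Slc7a6, a light chain of the same transport system, stood at 7.63, 7.19 and 8.45 FPKM in KO2, at 10.8, 8.60 and 8.78 in KO1 and at 11.1, 11.9 and 9.90 in Ctrl. Its KO2 libraries lay below all Ctrl libraries, and it fell in KO2 against Ctrl (log2 fold change -0.43 ± 0.11, SE; edgeR adjusted p = 0.0078). Its value in KO1 against Ctrl was -0.26 ± 0.11 (SE; edgeR adjusted p = 0.102), and it passed without KO1 replicate 1 (edgeR adjusted p = 0.0198). In KO2 against KO1 it was -0.17 ± 0.11 (SE; edgeR adjusted p = 0.232).

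Of the 4 tested Slc1 genes, 2 fell in KO2 against Ctrl, and in KO1 against Ctrl 1 fell and 1 rose. Of all tested genes, 29.5% fell in KO2 against Ctrl, and 14.9% fell and 15.6% rose in KO1 against Ctrl. Slc1a5, a sodium-dependent exchanger of glutamine and other neutral amino acids (gene 20514, chromosome 7, 16781334 to 16798274), stood at 28.4, 23.3 and 28.0 FPKM in KO2, at 34.5, 23.6 and 31.6 in KO1 and at 31.8, 51.3 and 38.5 in Ctrl. All KO2 libraries lay below all Ctrl libraries, and KO1 overlapped both. Slc1a5 fell in KO2 against Ctrl (log2 fold change -0.53 ± 0.19, SE; edgeR adjusted p = 0.0337), a call that was lost without Ctrl replicate 2 (adjusted p = 0.117), without Ctrl replicate 3 (0.0541) and without any KO2 replicate (0.0573, 0.118 and 0.0619 for replicates 1 to 3). In KO1 against Ctrl its value was -0.47 ± 0.18 (SE; edgeR adjusted p = 0.0816), which passed without Ctrl replicate 1 (edgeR adjusted p = 0.0298) and with DESeq2 (adjusted p = 0.0281). Slc1a4, a carrier of alanine, serine and cysteine, stood at 21.9 to 26.0 FPKM in KO2, 18.7 to 23.4 in KO1 and 17.8 to 25.5 in Ctrl, and was not called in any of the 3 comparisons.

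Slc1a2 and Slc1a7 are glutamate transporters known mainly from astrocytes and from the retina, and both were low here. Slc1a2 (gene 20511, chromosome 2, 102658239 to 102790784) had expected counts of 0, 2 and 0 in the KO2 libraries, 9, 8 and 3 in KO1 and 77, 163 and 108 in Ctrl. The groups did not overlap, and Ctrl held nearly all of the counts. Slc1a2 passed the filter on low counts only through Ctrl, so that a difference from Ctrl was built into its being tested. Slc1a2 fell in KO1 against Ctrl (log2 fold change -4.06 ± 0.44, SE; edgeR adjusted p = 5.3e-05). In KO2 it fell to 0.654% of Ctrl (95% counting interval 0.0789% to 2.38%; edgeR adjusted p = 4.12e-06), and it was lower than in KO1, at 11.2% (1.26% to 45.9%; edgeR adjusted p = 0.0187). The difference between the knockout lines was not called without KO1 replicate 1, KO2 replicate 1 or KO2 replicate 3 (edgeR adjusted p = 0.0539, 0.0631 and 0.0613). Intervals of this kind cover counting error only. Up to 6.29 Slc1a2 counts too few to be listed could be missing from KO2. Neither ratio allows for them, so the true ratios may lie above the values given.

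Slc1a7 (gene 242607, chromosome 4, 107968406 to 108013529) had expected counts of 3, 5 and 1 in KO2, 189, 31 and 80 in KO1 and 10, 37 and 13 in Ctrl. All KO2 libraries lay below all others, and the KO1 libraries spanned a wide range that overlapped Ctrl. Without KO1 the gene would not have passed the filter on low counts, so a high KO1 level was part of its being tested. Slc1a7 rose in KO1 against Ctrl (log2 fold change 2.33 ± 0.64, SE; edgeR adjusted p = 0.02), and this call was lost without Ctrl replicate 1 (adjusted p = 0.0719), Ctrl replicate 3 (0.0761) or KO1 replicate 1 (0.0580). The value itself was 1.54 without KO1 replicate 1 and 3.07 without Ctrl replicate 2. It was lower in KO2 than in KO1 (log2 fold change -4.82 ± 0.84, SE; edgeR adjusted p = 0.000873; -4.03 without KO1 replicate 1). In KO2 against Ctrl the log2 fold change was -2.49 ± 0.97 (SE; edgeR adjusted p = 0.0524), which passed with DESeq2 (adjusted p = 0.00403) and once Ctrl replicate 1 or either of KO1 replicates 1 and 2 was left out (edgeR adjusted p = 0.0443, 0.0158 and 0.0133).

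Of the 8 tested sodium-coupled neutral carriers of the Slc38 family, 3 fell in KO2 against Ctrl (37.5%), while 29.5% of all tested genes fell. Of the 6 with at least 1 CPM, 1 fell. Slc38a1, a glutamine transporter (gene 105727, chromosome 15, 96571418 to 96643438), stood at 21.2, 17.8 and 19.9 FPKM in KO2, at 30.8, 25.2 and 29.9 in KO1 and at 24.3, 29.7 and 26.3 in Ctrl. Every KO2 library lay below every library of the other groups. It fell in KO2 against Ctrl (log2 fold change -0.36 ± 0.10, SE; edgeR adjusted p = 0.0102) and in KO2 against KO1 (-0.44 ± 0.10, SE; edgeR adjusted p = 0.00364), and was at 0.07 ± 0.10 in KO1 against Ctrl (SE; edgeR adjusted p = 0.628). Slc38a3, a glutamine and histidine carrier known from liver and astrocytes, had 0 counts in all 3 KO2 libraries, 15, 22 and 13 in KO1 and 13, 15 and 14 in Ctrl. Taking for KO2 a floor of 3 counts in the group's total, with an allowance for reads too few to be listed, it was at least 6.99-fold lower in KO2 than in Ctrl (edgeR adjusted p = 0.000164) and at least 8.48-fold lower than in KO1 (edgeR adjusted p = 9.54e-05). Slc38a4, an imprinted carrier known from liver and placenta, kept 3 counts over KO2, against 14 in KO1 and 31 in Ctrl, which is 11.0% of Ctrl (95% counting interval 2.15% to 35.3%; edgeR adjusted p = 0.0424). That call was lost without Ctrl replicate 2, Ctrl replicate 3, KO2 replicate 1 or KO2 replicate 3. Without Ctrl, Slc38a4 would not have passed the filter on low counts, so a high Ctrl level was part of its being tested. The Slc38a4 ratio makes no allowance for up to 2.43 KO2 counts too few to be listed.

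Slc38a2, Slc38a6, Slc38a7, Slc38a9 and Slc38a10 were not called in the 3 comparisons. Slc38a9, known as the lysosomal arginine sensor upstream of mTORC1, stood at 2.28 to 2.84 FPKM in KO2, 2.56 to 2.85 in KO1 and 2.64 to 3.01 in Ctrl. Slc38a10 had a mean of 26.8 ± 0.154 FPKM in KO2, 27.2 ± 3.20 in KO1 and 25.0 ± 1.55 in Ctrl (SD, n = 3), and its log2 fold change of 0.18 ± 0.09 in KO2 against Ctrl passed without KO1 replicate 1 or 2 (edgeR adjusted p = 0.0274 and 0.0493). Slc38a7, which is known to export glutamine and asparagine from lysosomes, had log2 fold changes of 0.08 ± 0.15 in KO2 and 0.37 ± 0.14 in KO1 against Ctrl (SE; edgeR adjusted p = 0.649 and 0.0787), and the KO1 value passed once replicate 2 of Ctrl or of KO1 was left out (edgeR adjusted p = 0.0134 and 0.015). In KO2 against KO1, Slc38a7 was at -0.28 ± 0.14 (SE; edgeR adjusted p = 0.122) and passed without KO1 replicate 2 (edgeR adjusted p = 0.0254). Slc38a6 had log2 fold changes of 0.41 ± 0.18 in KO2 against Ctrl and 0.43 ± 0.18 in KO2 against KO1 (SE; edgeR adjusted p = 0.0826 and 0.0698), and the first passed without Ctrl replicate 1 or KO1 replicate 2, and the second without Ctrl replicate 2 or KO1 replicate 2. The overlapping gene Trmt5 was higher in KO2 than in KO1 by 0.50 (edgeR adjusted p = 0.000429). Slc38a6 and Trmt5 reads cannot be told apart where the genes overlap if the counting did not use strand, which is not given in the sources used here. The position of 15 of the 29 tested transporters overlapped another annotated gene, a protein-coding one for Slc38a6, Slc6a9, Slc7a3 and Slc7a7.

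Slc36a1 rose in KO2, and Slc43a2 rose in KO2 and in KO1. Slc36a1, a proton-coupled carrier of small amino acids known at lysosomes and at the cell surface (gene 215335, chromosome 11, 55204322 to 55236330), stood at 11.4, 12.5 and 11.8 FPKM in KO2, at 3.67, 5.36 and 4.45 in KO1 and at 5.35, 4.33 and 5.45 in Ctrl. The KO2 libraries lay far above the rest, and KO1 and Ctrl overlapped. The log2 fold change was 1.32 ± 0.13 in KO2 against Ctrl (2.49-fold, SE; edgeR adjusted p = 9.37e-06) and 1.51 ± 0.13 in KO2 against KO1 (2.85-fold, SE; edgeR adjusted p = 3.09e-06). The value in KO1 against Ctrl was -0.19 ± 0.13 (SE; edgeR adjusted p = 0.296), and -0.35 without KO1 replicate 2, where it passed (edgeR adjusted p = 0.0427). Leaving out each library in turn kept the KO2 value between 1.22 and 1.37. Slc36a4, a related carrier, stood at 1.81 to 1.90 FPKM in KO2, 2.16 to 2.21 in KO1 and 1.85 to 1.89 in Ctrl and was not called.

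Slc43a2, a facilitative carrier of branched-chain and other neutral amino acids (gene 215113, chromosome 11, 75529915 to 75577575), stood at 7.92, 7.69 and 7.64 FPKM in KO2, at 8.04, 8.27 and 8.83 in KO1 and at 5.90, 6.11 and 6.02 in Ctrl. All 6 knockout libraries lay above the 3 control libraries. It rose in KO2 against Ctrl (log2 fold change 0.44 ± 0.06, SE; edgeR adjusted p = 0.000171) and in KO1 against Ctrl (0.46 ± 0.06, SE; edgeR adjusted p = 0.000281), against the same Ctrl libraries. In KO2 against KO1 the log2 fold change was -0.02 ± 0.06 (SE; edgeR adjusted p = 0.794).

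In the Slc6 family, the carriers of taurine and creatine rose in KO2. Slc6a6, the taurine transporter (gene 21366, chromosome 6, 91684048 to 91759063), stood at 31.8, 29.8 and 31.1 FPKM in KO2, at 23.6, 21.5 and 23.0 in KO1 and at 19.5, 23.5 and 20.9 in Ctrl. Slc6a8, the creatine transporter (gene 102857, chromosome X, 73673133 to 73682502), stood at 15.7, 16.4 and 15.6 FPKM in KO2, at 10.6, 11.5 and 10.3 in KO1 and at 9.51, 9.94 and 9.92 in Ctrl. For both genes the KO2 libraries lay above all others. The log2 fold change of Slc6a6 was 0.61 ± 0.08 in KO2 against Ctrl (SE; edgeR adjusted p = 6.37e-05) and 0.55 ± 0.08 in KO2 against KO1 (SE; edgeR adjusted p = 0.000135). That of Slc6a8 was 0.78 ± 0.07 in KO2 against Ctrl (SE; edgeR adjusted p = 3.44e-06) and 0.67 ± 0.07 in KO2 against KO1 (SE; edgeR adjusted p = 1.11e-05). In KO1 against Ctrl, the values were 0.06 ± 0.08 for Slc6a6 and 0.11 ± 0.07 for Slc6a8 (SE; edgeR adjusted p = 0.586 and 0.248).

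Slc6a9, the glycine transporter, stood at 29.4, 24.2 and 27.5 FPKM in KO2, at 27.7, 16.5 and 26.1 in KO1 and at 13.5, 26.3 and 18.3 in Ctrl. The groups overlapped, and the log2 fold change of 0.55 ± 0.25 in KO2 against Ctrl was not called (SE; edgeR adjusted p = 0.0954). It passed without Ctrl replicate 2 (0.85; edgeR adjusted p = 0.0122) and with DESeq2 (adjusted p = 0.0218). For KO1 against Ctrl the value was 0.24 ± 0.25 (SE; edgeR adjusted p = 0.519).

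The low members Slc6a4, Slc6a2, Slc7a4 and Slc7a3 are named here after their values were seen, since they fell below 1 CPM. Slc6a4, the serotonin transporter, had expected counts of 0 in each KO2 library, 36, 44 and 38 in KO1 and 0, 6 and 3 in Ctrl. It rose in KO1 against Ctrl (log2 fold change 3.69 ± 0.57, SE; edgeR adjusted p = 0.0011), and KO2 was at least 19.1-fold lower than KO1 (edgeR adjusted p = 0.000117). KO2 was at least 1.43-fold lower than Ctrl (edgeR adjusted p = 0.0369), a call that rests on 9 Ctrl counts and did not hold once Ctrl replicate 2 or 3, KO1 replicate 3 or any KO2 replicate was left out. Slc6a2, the noradrenaline transporter, had 0 counts in each KO2 library, 30, 69 and 69 in KO1 and 4, 0 and 2 in Ctrl. It rose in KO1 against Ctrl (log2 fold change 4.76 ± 0.67, SE; edgeR adjusted p = 0.000718), and KO2 was at least 17.5-fold lower than KO1 (edgeR adjusted p = 0.000138). Both genes passed the filter on low counts only through KO1, so that a difference from the other groups was built into their being tested.

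Among the cationic carriers, Slc7a1, the main arginine and lysine uptake system of many cells (gene 11987, chromosome 5, 148327410 to 148399904), stood at 18.8, 16.4 and 19.3 FPKM in KO2, at 29.6, 19.5 and 28.9 in KO1 and at 20.2, 29.8 and 25.4 in Ctrl. The KO2 libraries lay below the others in FPKM. In CPM the groups overlapped, with KO2 reaching 144.14, Ctrl starting at 142.16 and KO1 at 134.99. The KO2 log2 fold changes were -0.39 ± 0.17 against Ctrl (SE; edgeR adjusted p = 0.0817) and -0.41 ± 0.17 against KO1 (SE; edgeR adjusted p = 0.068). Neither was called, although both passed with DESeq2 (adjusted p = 0.044 and 0.0323) and with only the 2 compared groups in the fit (edgeR adjusted p = 0.0382 and 0.0434). Both also passed without Ctrl replicate 1 (edgeR adjusted p = 0.0273 and 0.045) and without KO1 replicate 2 (edgeR adjusted p = 0.0252 and 0.00565), and the difference from KO1 passed without Ctrl replicate 2 (edgeR adjusted p = 0.0473). Slc7a4, a relative with no settled substrate, had expected counts of 36, 43 and 54 in KO2, 4, 8 and 7 in KO1 and 31, 30 and 28 in Ctrl. It stood apart in KO1, where it fell against Ctrl (log2 fold change -2.17 ± 0.34, SE; edgeR adjusted p = 0.000583), and it was higher in KO2 than in KO1 (2.94 ± 0.32, SE; edgeR adjusted p = 1.95e-05). In KO2 against Ctrl it rose by 0.77 ± 0.27 (SE; edgeR adjusted p = 0.0302), a call lost with DESeq2 (adjusted p = 0.0594), without any Ctrl replicate, without KO2 replicate 2 and without KO2 replicate 3.

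Slc7a3, a cationic carrier known mainly from brain, had expected counts of 3, 8 and 7 in KO2, 39, 37 and 21 in KO1 and 20, 17 and 12 in Ctrl, with no overlap between the groups. It was lower in KO2 than in KO1 (log2 fold change -2.25 ± 0.41, SE; edgeR adjusted p = 0.00078) and than in Ctrl (-1.24 ± 0.44, SE; edgeR adjusted p = 0.0328). The call against Ctrl was lost with DESeq2 (adjusted p = 0.0538), without Ctrl replicate 1 or 2 and without KO2 replicate 1 or 3. In KO1 against Ctrl the value was 1.01 ± 0.35 (SE; edgeR adjusted p = 0.0517), which passed without KO1 replicate 3 and without KO2 replicate 1 (edgeR adjusted p = 0.0364 and 0.0474). The overlapping gene Snx12 had log2 fold changes of 0.32 in KO1 and 0.19 in KO2 against Ctrl (edgeR adjusted p = 0.0141 and 0.0796). A part of shared reads in the Slc7a3 counts was not tested. Slc7a14, a lysosomal member of the family, stood at 0.41, 0.36 and 0.43 FPKM in KO2, at 0.47, 0.52 and 0.45 in KO1 and at 0.61, 0.50 and 0.56 in Ctrl. It fell in KO2 against Ctrl (log2 fold change -0.40 ± 0.14, SE; edgeR adjusted p = 0.0281), which was lost without Ctrl replicate 1 or 3 and without KO2 replicate 1 or 2 (edgeR adjusted p between 0.0626 and 0.0985).

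**Figure D3:**
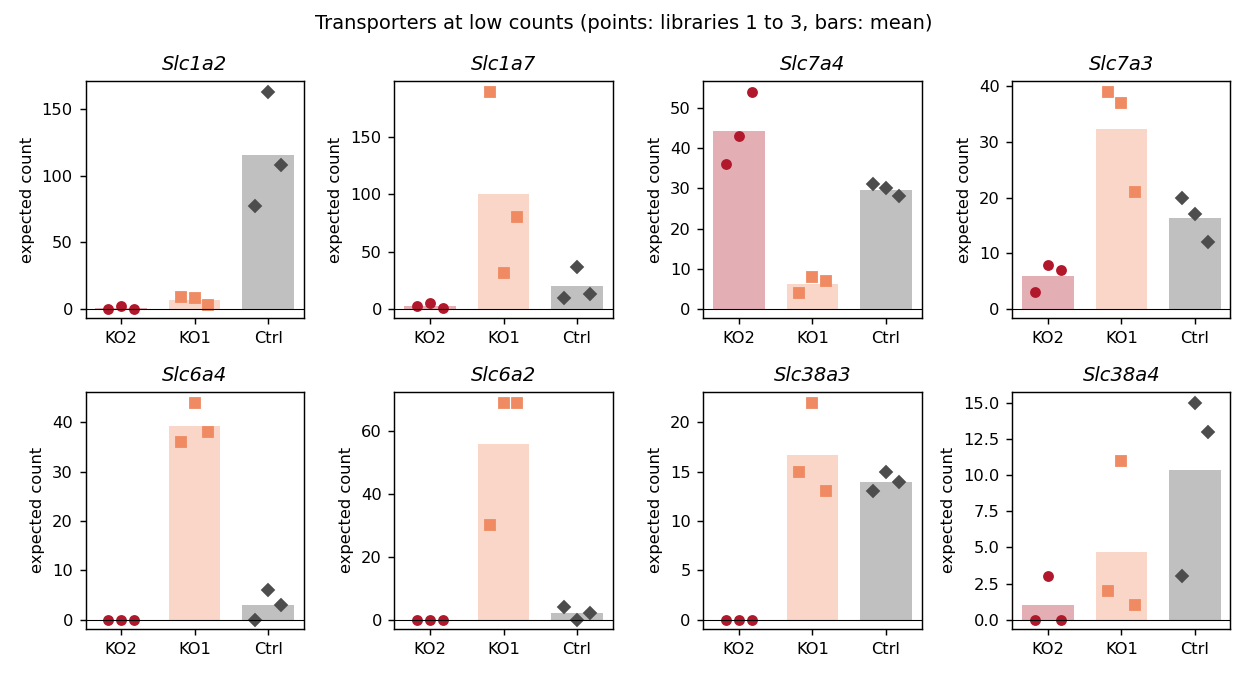
Expected counts of 8 transporter genes with low counts, with a point for each library (1 to 3 from left to right) and a bar from 0 to the group mean, for KO2, KO1 and Ctrl. Slc1a2 counts lie almost wholly in Ctrl, Slc6a4 and Slc6a2 counts in KO1, and Slc38a3 is at 0 in all 3 KO2 libraries.

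Within Ctrl and within KO1, a larger share of these carriers than of all genes differed between libraries. The ratio of the highest to the lowest CPM among the 3 Ctrl libraries exceeded 1.5 for 8 of the 23 transporters with at least 1 CPM (34.8%), and for 8.39% of all 12281 genes at that level. Among the KO1 libraries it exceeded 1.5 for 7 of 23 (30.4%, all genes 12.7%), and among the KO2 libraries for 1 of 23 (4.35%, all genes 6.12%). A gene at 0 in a library gave no ratio and was not counted as over 1.5, as for Slc1a2 in KO2. At low counts, Slc1a7 varied 3.46-fold in Ctrl, 5.65-fold in KO1 and 4.99-fold in KO2, and Slc1a2 1.98-fold in Ctrl and 2.81-fold in KO1. In Ctrl, Slc7a5 varied 2.13-fold and Slc6a9 1.96-fold, while in KO1 Slc7a11 varied 1.84-fold and Slc7a5 1.74-fold. Slc43a2 varied 1.03-fold in KO2, 1.10-fold in KO1 and 1.04-fold in Ctrl, and Slc38a2 at most 1.09-fold.

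A shared order of libraries was seen in 12 of the 23, and not in others that varied, such as Slc38a6, which ran the opposite way. For 12 of the 23 transporters (52.2%), Ctrl replicate 2 was the highest control, KO1 replicate 2 the lowest KO1 library and KO2 replicate 2 the lowest KO2 library, and 1811 of 12281 genes (14.7%) shared that order. These 12 were Slc38a1, Slc7a1, Slc6a9, Slc3a2, Slc1a5, Slc7a5, Slc7a7, Slc6a6, Slc38a7, Slc7a11, Slc7a6 and Slc1a4. The amino acid response list holds ATF4, its known targets and the upstream kinases Eif2ak3 and Eif2ak4. Among its tested genes, 16 of 23 (69.6%) had the same order, and among cytosolic aminoacyl-tRNA synthetases 15 of 20 (75.0%). Asns, which makes asparagine and is a classical ATF4 target, stood at 157, 120.1 and 133 FPKM in KO2, at 173, 73.2 and 142 in KO1 and at 92.7, 182 and 115 in Ctrl. Its libraries had the order seen for Slc7a5.

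The order was noticed in these data, the genes that share it are not independent of each other, and no test was made of it. Ctrl replicate 2 also had the highest total of its group (35406395 expected counts), and KO1 replicate 2 (31451889) and KO2 replicate 2 (30655924) the lowest of theirs. The part of depth in this order was not tested, and the values compared are scaled by library. The spread is what the large SEs of Slc7a5, Slc6a9, Slc7a11 and Slc3a2 rest on, and a difference between groups of these carriers was not detectable below it. Without Ctrl replicate 2, the log2 fold change of Slc7a5 was 0.14 in KO2 and 0.38 in KO1 against Ctrl.

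**Figure D4:**
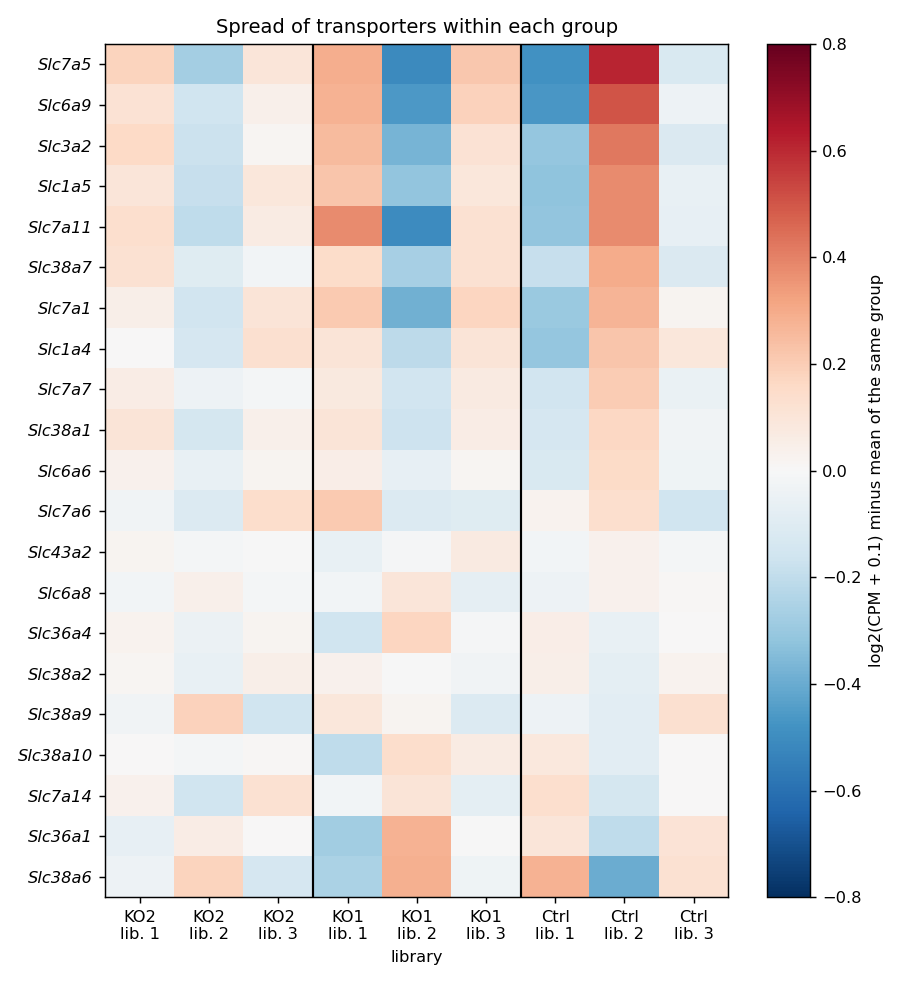
Deviation of each library from the mean of its own group, on a log2(CPM + 0.1) scale, for 21 transporter genes with at least 1 CPM (Slc1a7 and Slc1a2, which vary more at low counts, are not drawn), sorted by Ctrl replicate 2. From Slc7a5 to Slc7a6, Ctrl replicate 2 lies above its group, and KO1 replicate 2 and KO2 replicate 2 lie below theirs.

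The 22 genes that did not pass the filter held few reads, with at most 20 expected counts in any library (Slc7a15, KO1 replicate 2). Slc6a12, the betaine and GABA transporter, had 0 counts in KO2 and in KO1 and 5, 9 and 14 in Ctrl, so it was at least 4.59-fold lower in KO2 and at least 5.04-fold lower in KO1. Slc3a1, the heavy chain of the renal cystine carrier, had 4 to 8 counts in KO2, 7 to 12 in KO1 and 4 to 11 in Ctrl. For 10 of the 22, among them Slc7a9, Slc1a1, Slc38a8, Slc7a10 and Slc7a8, no more than 3 counts were found in all 9 libraries together. Others with few counts were Slc36a3, Slc43a3, Slc7a13, Slc7a2, Slc6a19, Slc1a3, Slc38a5, Slc36a2 and Slc6a14. KO2 replicate 2 listed 37 of the 51 genes, against 28 and 29 in the other KO2 libraries, and 10 transporters were seen in it alone among the KO2 libraries. Over all genes, 870 were seen in KO2 replicate 2 alone, against 381 and 350 in the other KO2 libraries. The 2 counts of Slc1a2 and the 3 counts of Slc38a4 in KO2 came from that library.

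Genes around the carriers were read from 9 lists written with earlier results of these data known. Their counts are to be read against the share of all tested genes that was called, 54.1% in KO2 against Ctrl, 55.0% in KO2 against KO1 and 30.5% in KO1 against Ctrl. Of 23 tested amino acid response genes, 2 rose and 9 fell in KO2 against Ctrl, 3 rose and 6 fell in KO2 against KO1, and 1 rose and 4 fell in KO1 against Ctrl. Their medians were -0.35, -0.14 and -0.05 in that order of comparisons, with medians over all genes of -0.03, -0.02 and -0.00. Atf3, a stress-induced repressor, fell in KO2 against Ctrl (log2 fold change -2.65) and rose in KO1 against Ctrl (1.35), and Ppp1r15a, a phosphatase subunit that ends the stress response, fell in KO2 (-1.78). Atf4 itself stood at 183 to 209.7 FPKM in KO2, 191 to 218 in KO1 and 211 to 234 in Ctrl and was not called. The KO1 total of 5 became 3 without Ctrl replicate 3 or KO1 replicate 1. Of 20 aminoacyl-tRNA synthetases, 2 rose in KO2 against Ctrl (Qars 0.31, Hars 0.30), 4 rose and 1 fell in KO2 against KO1, and 1 fell in KO1 against Ctrl (Wars -0.87). The KO2 against Ctrl total became 4 when Ctrl replicate 1 was left out, 5 for KO1 replicate 2 and 1 for KO2 replicate 3. The total of 5 in KO2 against KO1 was 1 without KO2 replicate 1, 2 without KO1 replicate 3 or KO2 replicate 3, and 3 without Ctrl replicate 3, KO1 replicate 1 or KO2 replicate 2. The call on Wars was lost without any single library other than Ctrl replicate 1 and KO1 replicate 1, and the total was 2 without KO1 replicate 1.

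A list around cystine, glutathione and redox defence had 15 tested genes, and not all of them use cystine (Keap1, Acsl4 and Cd44 are on it). Of the 15, 7 rose and 2 fell in KO2 against Ctrl, and 8 rose and 4 fell in KO2 against KO1. In KO1 against Ctrl, 3 rose and 5 fell. In the same order, 60.0%, 80.0% and 53.3% of the list were called, against 54.1%, 55.0% and 30.5% of all genes. The list medians were 0.18, 0.26 and -0.04. Nqo1, a quinone reductase, had log2 fold changes of 1.36 in KO2 and -1.30 in KO1 against Ctrl, and Gclc, the catalytic subunit of glutamate-cysteine ligase, 1.19 and -0.68. Nqo1 and Gclc were higher in KO2 than in KO1 by 2.66 and 1.87. Hmox1, a heme oxygenase of the same list, fell in KO2 (-1.39) and in KO1 (-0.71). Of 11 genes of arginine and polyamine metabolism, 2 rose and 5 fell in KO2 against Ctrl, 1 rose and 7 fell in KO2 against KO1, and 3 rose and 3 fell in KO1 against Ctrl (63.6%, 72.7% and 54.5% of the list, against the same shares of all genes). Nos2, which makes nitric oxide from arginine, fell in KO2, with 18 expected counts over KO2, 13452 over KO1 and 8415 over Ctrl, and Ass1, which remakes arginine from citrulline, fell in KO2 (-3.64) and in KO1 (-1.67).

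Of 14 genes of glutamine, glutamate and aspartate metabolism, 2 rose and 2 fell in KO2 against Ctrl, 5 rose and 5 fell in KO2 against KO1, and 2 rose and 3 fell in KO1 against Ctrl. Glul, glutamine synthetase, rose in KO2 against Ctrl (0.75). The KO1 total of 5 was 2 without Ctrl replicate 1 and 3 without Ctrl replicate 3. Of 9 genes of branched-chain amino acid and tryptophan metabolism, 3 rose and 3 fell in KO2 against Ctrl and in KO2 against KO1, and 2 rose and 1 fell in KO1 against Ctrl. The total of 6 in KO2 against KO1 became 3 without KO1 replicate 1 or 3 and without KO2 replicate 1 or 3. Ahr, a receptor of tryptophan metabolites, fell in KO2 (-1.40) and in KO1 (-1.12). Of 25 genes of amino acid sensing by mTORC1, 11 rose and 5 fell in KO2 against Ctrl, 7 rose and 5 fell in KO2 against KO1, and 4 rose in KO1 against Ctrl, where the total was 7 without KO1 replicate 1. These are 64.0%, 48.0% and 16.0% of the list, against 54.1%, 55.0% and 30.5% of all genes. Sesn3, a stress-inducible sestrin, rose in KO2 (1.13) and in KO1 (1.08), as did Flcn, folliculin (0.73 and 0.49).

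Of 7 partners and regulators of carriers, 1 rose and 4 fell in KO2 against Ctrl, 5 fell in KO2 against KO1, and 3 rose and 1 fell in KO1 against Ctrl, while 29.5%, 29.5% and 14.9% of all genes fell in these comparisons. Nedd4l, a ubiquitin ligase known to remove carriers from the surface, had 50 expected counts over KO2, 3497 over KO1 and 2308 over Ctrl, with log2 fold changes of -5.33 in KO2 and 0.63 in KO1 against Ctrl. Sgk1, a kinase known to oppose Nedd4l, fell in KO2 (-2.43) and in KO1 (-0.74), and Myc fell in KO2 (-1.38). Of 6 tested carriers of amino acids or peptides with other symbols, 2 rose and 2 fell in KO2 against Ctrl, 2 rose and 1 fell in KO2 against KO1, and 1 rose in KO1 against Ctrl. The total in KO2 against KO1 was 5 without Ctrl replicate 2, KO1 replicate 1 or KO2 replicate 2 and 1 without KO2 replicate 3, and that in KO1 against Ctrl was 2 without any library but KO1 replicate 1. Slc16a10, an aromatic amino acid carrier, rose in KO2 (0.73), and Ctns, the lysosomal cystine exporter, rose in KO2 (0.41) and in KO1 (0.75).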

How the data were processed

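Total RNA from 9 libraries was sequenced as paired ends on BGISEQ-500, per the labels' protocols. For each library the authors deposited an expected count (an estimated count that need not be whole) and an FPKM value per gene, per the file headers. The submitters' processing notes name HISAT, RSEM, mm10 and GRCm38, with no versions, and the strand setting is not given in the sources used here. Each deposited FPKM table lists values from 0.01 up, and an unlisted gene was taken as 0 in count and FPKM. Groups come from the sample titles, since the design text numbers some libraries otherwise.

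Expected counts were rounded, filtered with filterByExpr (13682 genes kept), scaled by TMM and tested with edgeR 4.0.16 in R 4.3.3 (quasi-likelihood F test, all 9 libraries in 1 fit, 6 residual degrees of freedom, Benjamini-Hochberg adjustment over all tested genes). Calls are those with an adjusted p under 0.05. SE is the absolute log2 fold change divided by the square root of F and is approximate. The procedure was tested on simulated data. Genes with 3 counts or fewer in a group are given by a bound or a ratio with a 95% counting interval. The bounds allow for reads too few to be listed, and the ratios do not. Same-numbered libraries did not deviate together (correlations from -0.343 to 0.049), so the main fit is unpaired. Between groups, libraries with different numbers had correlations from -0.168 to 0.336, the highest for Ctrl replicate 2 with KO1 replicate 1. What lies behind these was not tested. Tried as alternatives were other scalings and filters, DESeq2 1.42.0, limma-voom (limma 3.58.1), a replicate block and each library left out, 18 settings in all.

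The transporter genes, the 9 lists (149 genes) and the tests were chosen with earlier results of these data known. Values are given in full for Slc7a11, Slc7a5, Slc3a2 and, in each comparison, the 10 called transporters with the largest change and at least 1 CPM, and by bound for those with a group at 0 counts. Up to 4 called genes of a list are named in each comparison. Some genes of the set and of the lists are not reported here by name.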

Additional observations from a re-analysis of the deposited data

Results flagged for a closer look

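Both knockout lines were set against the same Ctrl libraries, and for 12 transporters their values differed from each other in the direct test of KO2 against KO1 (edgeR, Benjamini-Hochberg adjusted). These are 41.4% of the 29 tested transporters, below the 55.0% of all tested genes called in that comparison. On the log2 scale, KO2 minus KO1 was 1.51 for Slc36a1, 0.67 for Slc6a8, 0.55 for Slc6a6 and 2.94 for Slc7a4, all higher in KO2. It was -0.44 for Slc38a1, -0.50 for Slc7a7, -2.25 for Slc7a3 and -4.82 for Slc1a7, all lower in KO2. Where KO2 held at most 2 counts over its libraries, the difference is given by the counts in KO1: Slc6a4 had 118 expected counts over the 3 KO1 libraries, Slc6a2 had 168, Slc38a3 had 50 and Slc1a2 had 20. Slc6a4, Slc6a2, Slc1a2 and Slc1a7 would not have passed the filter without their highest group, so a group difference was part of their being tested.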

How the results depend on the processing

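Of the single-gene values under the 18 settings, 1222 kept their direction and their side of the threshold, 42 newly passed it, 40 no longer passed and 41 changed sign. Slc6a4, Slc6a2, Slc38a3 and Slc38a4 are not in this tally, and some calls on them were lost too. In KO2 against Ctrl, Slc6a4 was lost with limma-voom, and Slc6a4 and Slc38a4 with only the 2 compared groups in the fit. The sign changes belong to 15 genes and comparisons that passed the threshold neither in the fit reported nor where the sign changed, so no direction is given for them. Of the counts, 579 stayed within 1.5 times and 69 moved further. In KO2 against Ctrl, 8 transporters were called at an adjusted p under 0.01, of which 4 were lower. In KO2 against KO1, 5 were lower with a filter at 1 CPM in 3 libraries. Leaving out each library in turn gave 10 to 19 transporters called in KO2 against Ctrl (5 to 12 lower), 11 to 15 in KO2 against KO1 and 5 to 8 in KO1 against Ctrl. Same-numbered libraries did not deviate together, and a fit with the replicate block called 10 transporters in KO2 against Ctrl (6 lower), 12 in KO2 against KO1 and 5 in KO1 against Ctrl. It lost Slc1a5, Slc6a4, Slc7a14, Slc7a3 and Slc7a4 in KO2 against Ctrl and Slc1a7 in KO1 against Ctrl. Scaling by total counts set the median of all genes at -0.11 in KO2 against Ctrl and -0.13 in KO2 against KO1, and newly called Slc1a7 and Slc7a1, and Slc38a2, Slc38a7 and Slc7a1, in these comparisons, and Slc7a3 in KO1 against Ctrl. Genes with few counts, and those that vary within groups, limit what could be detected. The cause of these changes was not tested.

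The log2 fold changes that changed sign are these. Scaling by total counts gave 0.0129 for Slc3a2 and 0.0083 for Slc38a6 in KO1 against Ctrl, and -0.1012 for Slc38a9 and -0.0196 for Slc38a10 in KO2 against KO1. With no filter, Slc38a2 was at 0.0097 in KO2 against Ctrl and Slc43a2 at 0.0061 in KO2 against KO1. Slc38a2 was at 0.0003 in KO2 against Ctrl with only the 2 compared groups. Slc38a9 was at -0.0048 in KO2 against KO1 with a filter at 1 CPM and at -0.0008 with limma-voom. With each library left out in turn, KO2 against Ctrl ranged from -0.4422 to 0.1387 for Slc7a5, -0.2291 to 0.1603 for Slc3a2, -0.0063 to 0.251 for Slc38a7 and -0.0524 to 0.0165 for Slc38a2. KO2 against KO1 ranged from -0.2044 to 0.0648 for Slc3a2, -0.1804 to 0.0539 for Slc1a5, -0.0504 to 0.0154 for Slc43a2, -0.091 to 0.0821 for Slc38a9 and -0.0075 to 0.1804 for Slc38a10. KO1 against Ctrl ranged from -0.2046 to 0.3762 for Slc7a5, -0.1658 to 0.2236 for Slc3a2, -0.115 to 0.1848 for Slc7a1, -0.1291 to 0.0579 for Slc7a7, -0.2015 to 0.0518 for Slc1a4 and -0.1972 to 0.1225 for Slc38a6.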
